A study of Mus musculus with 7 samples.

Results

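miR-135a and miR-135b are the products of 3 hairpins of the mouse genome, Mir135a-1, Mir135a-2 and Mir135b. The identifiers mmu-miR-135a, mmu-miR-135b, mmu-miR-135a-1*, mmu-miR-135a-2* and mmu-miR-135b* were selected by name, which gave 5 products at 6 mature loci, of 756 distinct mature sequences at 806 loci. The 2 main products had been chosen with their levels in these libraries known, the non-trained control library being the highest for both, so the comparisons that use this library are given as descriptions with no test. Small RNA was sequenced from pooled hippocampi of adult C57BL/6 males of 3 to 5 months. NIPP1* mice express the PP1-binding part of NIPP1, a nuclear inhibitor of protein phosphatase 1 (PP1), fused to EGFP under a tetO promoter. A doxycycline-dependent transactivator under the CaMKIIalpha promoter drives it in forebrain neurons, so the other cells of the hippocampus do not carry the expressed inhibitor. Its expression was induced in adult mice by a diet with doxycycline. Controls were littermates, labelled wildtype. Mice were either trained on an object recognition task (NOR), in which mice explore unfamiliar objects and later have to tell them from new ones, or not trained. By the paper's methods, non-trained mice went through the same handling and habituation to the arena but met no objects. Hippocampi were collected shortly after the end of training. The labels give 1 untrained wildtype sample (library 1, here non-trained control), 1 untrained NIPP1* sample (library 2, non-trained NIPP1*), 3 trained wildtype samples (libraries 3 to 5, trained control) and 2 trained NIPP1* samples (libraries 6 and 7). Whether the libraries of a group came from separate mice is not given in the sources used here, so the tests measure the spread between libraries only.

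A miRNA is cut from a hairpin of its primary transcript by Drosha and then Dicer, and one strand of the resulting duplex is loaded into an Argonaute protein, where it lowers the output of mRNAs that pair with its seed, bases 2 to 8 of the miRNA. The strand that is kept is the main product and the opposite strand, marked here with an asterisk, is mostly degraded. The 5p strands of the Mir135a and Mir135b hairpins belong to one miRNA family. In the brain, miR-135 is known from work on serotonergic neurons and on dendritic spines.

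The sequences below show why the reads of the hairpins can or cannot be told apart. They are RefSeq sequences (GRCm38.p6), written from 5′ to 3′ with the seed in capitals, and each is identical to a mature locus in the deposited files. RefSeq sequences were matched for 4 of the 5 products, and miR-135b itself is given by name only.
mmu-miR-135a-5p: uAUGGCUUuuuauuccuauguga
mmu-miR-135a-1-3p: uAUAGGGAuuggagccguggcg
mmu-miR-135a-2-3p: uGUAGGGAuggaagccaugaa
mmu-miR-135b-3p: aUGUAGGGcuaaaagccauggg
The first sequence, miR-135a, is cut from both Mir135a-1 and Mir135a-2, so its reads do not show which hairpin they came from. The 3p products of the 2 hairpins, named miR-135a-1* and miR-135a-2* in the tables, differ at 6 of 21 positions counted from the 5′ end, so their reads do. The 3 seeds of the 3p products all differ from each other and from the seed of miR-135a.

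The hairpins lie on 3 chromosomes (coordinates in mm9). Mir135b is at chr1:134094665-134094761 on the plus strand, inside an intron of Lemd1, a protein-coding gene read in the same direction. Its main product lies at chr1:134094680-134094702 and miR-135b* at chr1:134094719-134094740. Mir135a-1 is at chr9:106056455-106056544 on the plus strand, inside an intron of the long non-coding RNA D030055H07Rik and opposite an exon of Glyctk, which codes for glycerate kinase and runs on the other strand. Mir135a-2 is at chr10:91534831-91534930 on the minus strand. It lies outside annotated genes, 9561 bp from Rmst, a long non-coding RNA known from neurogenesis that is read from the same strand.

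The level of a product is given as RPM, the number of its reads in 1000000 miRNA reads of a library, obtained from the deposited percentages. The libraries held between 7285432 and 10017980 miRNA reads, so that 1 read was worth 0.0998 to 0.137 RPM. Intervals of single libraries are exact (Clopper-Pearson) 95% intervals and cover counting error only. The genotype could not be checked, because the transgene is not read by small RNA sequencing. The tables of comparisons deposited by the authors place the trained libraries the other way round from the labels. Over 319 miRNAs, the mean signal that these tables give for trained control was rebuilt from libraries 6 and 7 with a root mean square error of 0.029%, and from libraries 3, 4 and 5 with one of 18.8%. The labels are followed here, which of the assignments holds could not be settled from the data, and every direction between the trained genotypes turns around under the other assignment. The brain miRNAs miR-124, miR-9, miR-128, miR-137 and miR-132 of the labelled tissue together made up 190700 to 220900 RPM in each library. In pooled tissue, fewer cells of a type and less of a miRNA per cell cannot be told apart.

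The main products were both highest in the non-trained control library. miR-135a stood at 4840 RPM (4794 to 4886) in non-trained control and at 2661 RPM (2626 to 2697) in non-trained NIPP1*. In trained control it stood at 2797, 1937 and 2574 RPM, and in trained NIPP1* at 2029 and 1994 RPM. The non-trained control library was alone at the top, 1.73-fold above the next library, while the values of the other groups overlapped or lay next to each other. The mean was 2436 ± 446 RPM (SD, n = 3) in trained control and 2012 ± 24.8 RPM (SD, n = 2) in trained NIPP1*. In order of level, non-trained control came first, then non-trained NIPP1*, trained control and trained NIPP1*, but non-trained NIPP1* fell inside the range of trained control, and both trained NIPP1* libraries did too.

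miR-135b had the same order of groups at a lower scale, with a mean over the 7 libraries of 248.6 RPM against 2690 RPM for miR-135a. It stood at 419.2 RPM in non-trained control and at 230.9 RPM in non-trained NIPP1*. In trained control it stood at 252.7, 145.5 and 276.4 RPM, and in trained NIPP1* at 213.9 and 201.6 RPM. Here the non-trained control library was 1.52-fold above the next one, and the other 6 libraries again did not separate by group. The mean was 225 ± 69.7 RPM (SD, n = 3) in trained control and 208 ± 8.70 RPM (SD, n = 2) in trained NIPP1*. Over the 5 trained libraries, the coefficient of variation was 17.3% for miR-135a and 23.1% for miR-135b, and the second trained control library was the lowest of all 7 for both.

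**Figure D1:**
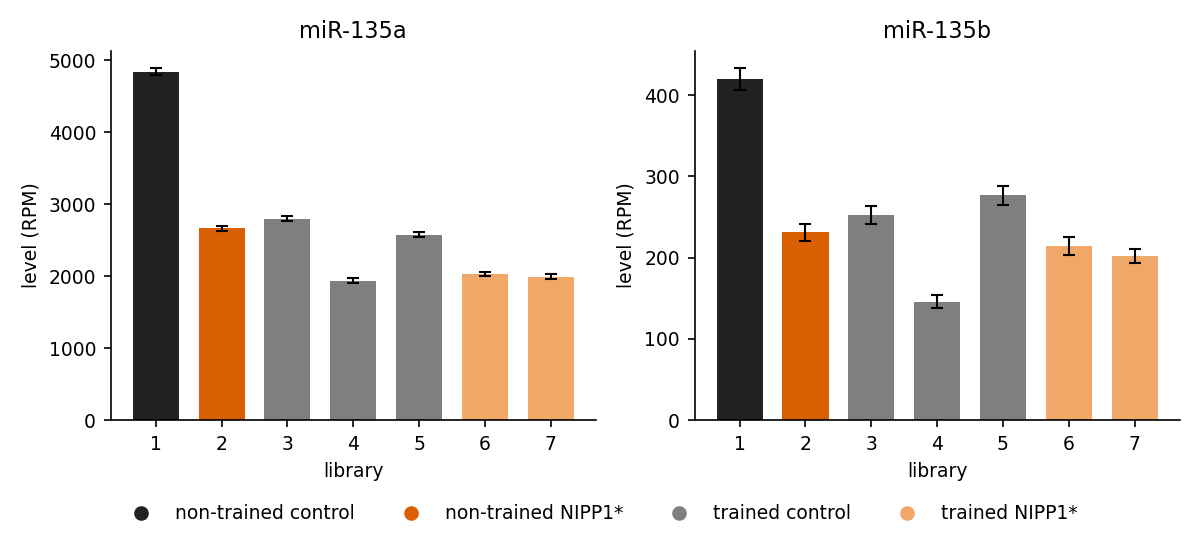
Level of miR-135a (left) and miR-135b (right) in RPM in each library, coloured by group as labelled, with bars from 0 and exact 95% counting intervals as whiskers. The non-trained control library stands at 4840 and 419.2 RPM, and the other 6 libraries lie between 1937 and 2797 RPM for miR-135a and between 145.5 and 276.4 RPM for miR-135b.

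By mean RPM, which compares mature products of about the same length, miR-135a was at rank 46 of the 756 sequences. It lay between miR-541 at 2951 RPM and miR-30c at 2431 RPM. miR-135b was at rank 136, between miR-221* at 258.4 RPM and miR-409-3p at 245.3 RPM.

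The gap between the non-trained control library and the next library was set beside that of all 476 miRNAs that averaged 10 reads or more. The non-trained control library was the highest of the 7 libraries for 95 of the 476 miRNAs (20.0%). It exceeded each of the other 6 libraries by a log2 difference of 0.5 or more for 2 miRNAs (0.42%), and these were miR-135a with 0.79 and miR-135b with 0.60. The following miRNAs were miR-503 with 0.50, miR-34a, a p53 target gene, with 0.41 and miR-467e with 0.38. Since the main products were chosen with these levels in view, the ranks describe how far they stood out and do not test it. With TMM scaling, which sets libraries to a common trimmed mean, the gap was 0.717 for miR-135a and 0.482 for miR-135b, and with DESeq2 size factors it was 0.723 and 0.455, so that miR-135a alone passed 0.5, with both still at ranks 1 and 2. The same gap of 0.5 or more was held by 6 miRNAs in library 4, by 4 in library 7 and by 1 or 2 in each of the others.

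**Figure D2:**
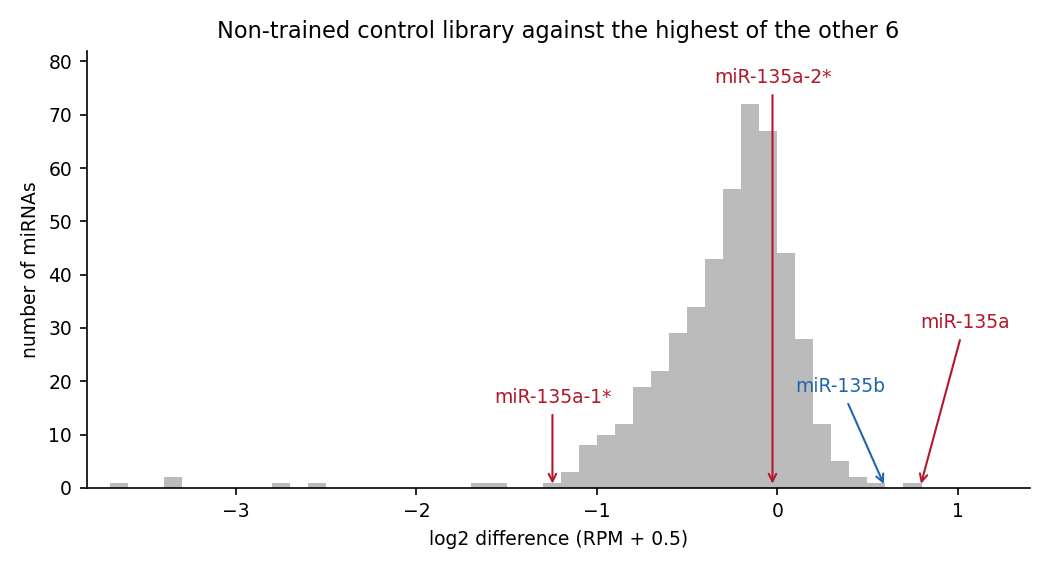
Number of miRNAs (of 476) by the log2 difference between the non-trained control library and the highest of the other 6 libraries, in bins of 0.1, with arrows at the products of the miR-135 hairpins. miR-135a (0.79) and miR-135b (0.60) are at the right end, miR-135a-2* (-0.03) is at rank 109 of the 476 and miR-135a-1* (-1.25) at rank 469.

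Of the lists of cell type markers, the summed level in the non-trained control library exceeded that of the other 6 for 3. For the oligodendrocyte miRNAs (miR-219-5p, miR-338-3p and miR-338-5p) it was 4850 RPM against 2808 to 4426 RPM, nearly all of it miR-338-3p (4788 RPM), while miR-219-5p (19.96 RPM) and miR-338-5p (41.62 RPM) were each higher in another library. For the miRNAs abundant in pituitary (miR-7a, miR-7b and miR-375, which neurons also hold) it was 14200 RPM against 7532 to 11930 RPM, with miR-375 (62.65 RPM) inside the 58.9 to 75.6 RPM of the others, and for the 5 brain miRNAs 220900 RPM against 190700 to 217800 RPM. Among the latter, miR-9 (149800 RPM) and miR-137 (12840 RPM) were highest in non-trained control and miR-128 (53960 RPM) and miR-132 (256.9 RPM) were lowest there. The sums of the other lists lay within the range of the other libraries, at 835.2 RPM against 601.5 to 1272 for 6 choroid plexus miRNAs, 2110 against 1527 to 2264 for 6 leukocyte and microglia miRNAs (of which miR-21 alone was highest there, at 820.9 against 347.7 to 639.8), 14820 against 14790 to 18450 for 4 vessel miRNAs, 115.9 against 61.9 to 250.9 for 2 of 3 red cell miRNAs and 37.0 against 26.58 to 47.96 for 3 of 4 hindbrain miRNAs. In the choroid plexus list, miR-211 reached at most 0.27 RPM in any library, while miR-204 ranged from 400.1 to 1154 RPM and miR-200a from 68.04 to 224.6 RPM. In the hindbrain list, miR-196b reached at most 0.12 RPM, while miR-10a ranged from 17.48 to 26.14 RPM and miR-10b from 9.1 to 22.38 RPM. The part of these cell types in the level of miR-135a and miR-135b was not tested.

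The comparison of the non-trained libraries addresses PP1 inhibition without training. miR-135a was 1.82-fold lower in non-trained NIPP1* than in non-trained control, a log2 ratio of -0.863 (counting interval -0.887 to -0.839, 21481 against 43033 reads). miR-135b was also 1.82-fold lower, with a log2 ratio of -0.86 (-0.941 to -0.78, 1864 against 3727 reads). There was 1 library a group, so the difference has no replicate check. Over all 476 miRNAs the median log2 ratio was 0.018, and 4 (0.84%) were at -1 or lower, miR-135a and miR-135b not among them, with ranks 6 and 8 from the lowest.

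The comparison of trained with non-trained control addresses training in mice with PP1 intact, and it shares the non-trained control library with the comparison above. The mean of trained control was 2.01-fold lower for miR-135a, a log2 difference of -1.01, and 1.93-fold lower for miR-135b, a log2 difference of -0.951. Each of the 3 trained control libraries lay below the non-trained one for both miRNAs. The median over the 476 miRNAs was -0.09, and 2 (0.42%) were at a log2 difference of -1 or lower, of which miR-135a was one. With TMM or DESeq2 size factors miR-135a did not reach -1 (-0.9167 and -0.9132). On the RPM scale, miR-135a had rank 2 from the lowest and miR-135b rank 4. Leaving out 1 trained control library gave -1.116 to -0.8508 for miR-135a and -1.126 to -0.6645 for miR-135b, and with libraries 6 and 7 in place of 3, 4 and 5, as in the tables of the authors, the differences were -1.27 and -1.01.

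Comparisons that do not use the non-trained control library were tested with limma on log2(RPM + 0.5) over all 476 miRNAs, with Benjamini-Hochberg adjustment. In trained NIPP1* against trained control, 0 of 476 miRNAs were called at an adjusted p under 0.05 (0.0%), 34 had an unadjusted p under 0.05, edgeR called 0 and the DESeq2 Wald test 1, and none of these calls was a product of the miR-135 hairpins. miR-135a had a log2 difference of -0.26 (SE 0.168, 95% interval -0.659 to 0.141, limma adjusted p = 0.662). miR-135b had one of -0.06 (SE 0.277, interval -0.718 to 0.596, limma adjusted p = 0.973), and this turned positive when the first or the third trained control library was left out. The intervals leave room for a lower level in trained NIPP1* of up to 0.659 and 0.718 on the log2 scale, so the small differences do not show that the levels were equal. The trained groups did not overlap for 126 of the 476 miRNAs (26.5%), and 0 of the 4 tested products of the miR-135 hairpins were among these.

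In trained against non-trained NIPP1*, which addresses training under PP1 inhibition, limma also called 0 of 476 miRNAs (0.0%). An unadjusted p under 0.05 was found for 21, edgeR called 0 and the DESeq2 Wald test 2, neither a product of the miR-135 hairpins. Both trained NIPP1* libraries lay below the non-trained one, for miR-135a with a log2 difference of -0.40 (SE 0.226, interval -0.940 to 0.132, limma adjusted p = 0.973) and for miR-135b with one of -0.15 (SE 0.372, interval -1.034 to 0.729, limma adjusted p = 0.999). With libraries 3, 4 and 5 as trained NIPP1*, as in the tables of the authors, the differences were -0.1446 for miR-135a and -0.09185 for miR-135b, and library 3 lay above the non-trained NIPP1* library for both. The single non-trained library has no spread of its own, and limma assumed that of the trained groups. The training differences in NIPP1* and in control were not tested against each other, since the latter rests on the non-trained control library.

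**Figure D3:**
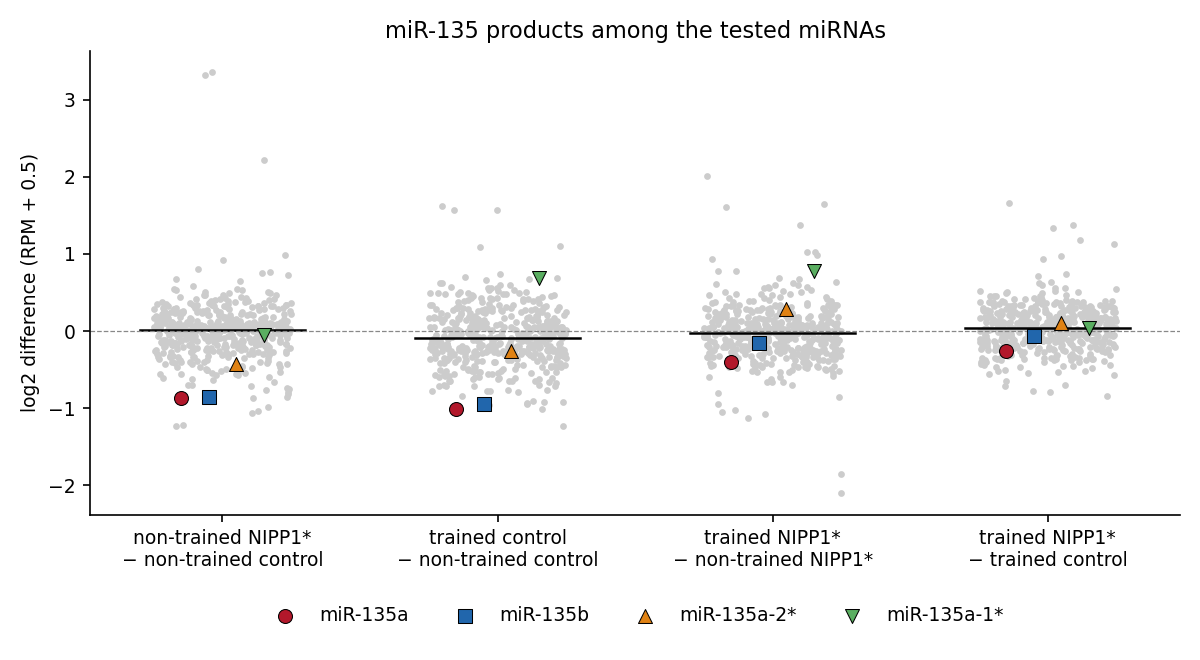
Log2 differences of all 476 tested miRNAs (grey, spread sideways at random) in 4 comparisons, with the median as a line and the 4 tested products of the miR-135 hairpins marked. miR-135a and miR-135b lie at -0.86 or lower in both comparisons with the non-trained control library, and between -0.40 and -0.06 in those without it.

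The 3p products were rare, and for none of them was the non-trained control library the highest. miR-135a-2*, from Mir135a-2, stood at 8.21 RPM (73 reads) in non-trained control and 5.95 RPM (48 reads) in non-trained NIPP1*. It stood at 6.71, 7.66 and 6.14 RPM in trained control and at 8.37 and 6.49 RPM in trained NIPP1*. The highest value was that of a trained NIPP1* library, and all 7 lay within a narrow band that the counting intervals overlap. Its log2 ratio of non-trained NIPP1* to control was -0.464, with a counting interval of -1.02 to 0.0795 that includes both 0 and the ratio of the main products. In trained NIPP1* its log2 difference was 0.11 from trained control (SE 0.212, limma adjusted p = 0.904), which turned to -0.06 without the first trained NIPP1* library, and 0.29 from non-trained NIPP1* (SE 0.284, limma adjusted p = 0.973).

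miR-135a-1*, from Mir135a-1, stood at 0.79 RPM (7 reads) in non-trained control and 0.74 RPM (6 reads) in non-trained NIPP1*. It stood at 1.22, 1.2 and 2.56 RPM in trained control and at 1.65 and 1.6 RPM in trained NIPP1*. Both non-trained libraries were therefore at the low end, and the third trained control library, with 20 reads, was the highest. In trained against non-trained NIPP1* its log2 difference was 0.78 (SE 0.444, interval -0.277 to 1.831, limma adjusted p = 0.973), and it ranged from 0.5932 to 1.165 over the alternatives, none of which called it. In trained NIPP1* against trained control it was 0.03 (SE 0.331, limma adjusted p = 0.990), and -0.02 with TMM and -0.01 with DESeq2 size factors. Against non-trained control, the mean of trained control was higher by 0.69 on the log2 scale, at rank 469 from the lowest of 476, next to 7 reads in the single non-trained library, and by 0.41 without the third trained control library.

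miR-135b* was at the edge of detection, with 1 to 4 reads in each library (0.12 to 0.5 RPM), and with a mean of 2.71 reads it was not tested. The 3p products were at ranks 362 (miR-135a-2*, mean 7.08 RPM), 467 (miR-135a-1*, 1.39 RPM) and 574 (miR-135b*, 0.331 RPM) of the 756 sequences.

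**Figure D4:**
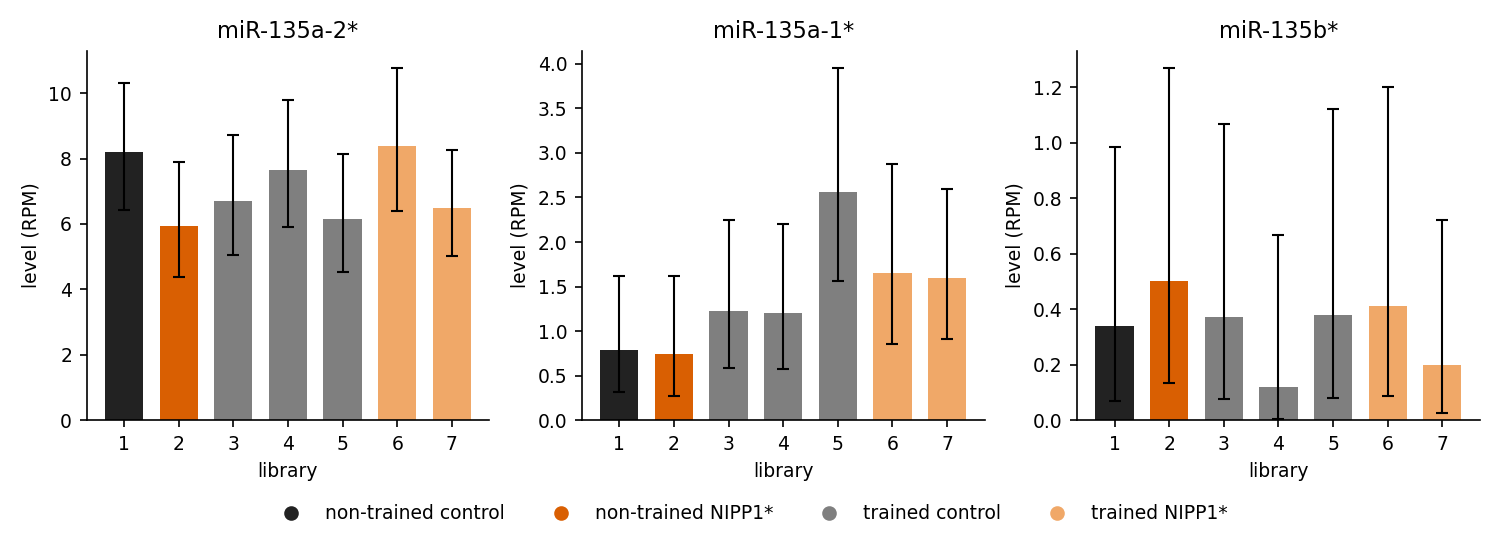
Level in RPM of the 3p products miR-135a-2*, miR-135a-1* and miR-135b* in each library, coloured by group as labelled, with bars from 0, an axis for each product and exact 95% counting intervals. The non-trained control library stands at 8.21, 0.79 and 0.34 RPM and is not the highest for any of them.

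Of all reads of the Mir135a hairpins, 495 of 159011 came from the 3p arm, 0.311% (exact 95% interval 0.285 to 0.34), and for Mir135b 19 of 14636 did, 0.13% (0.0782 to 0.203). The 3p reads show the 2 copies of Mir135a apart. Over the 7 libraries, 414 of 495 were from Mir135a-2, 83.6% (80.1 to 86.8). The intervals of these pooled shares cover counting error only, not the spread between libraries. The share was 91.2% in non-trained control, 88.9% in non-trained NIPP1*, 84.6%, 86.5% and 70.6% in trained control, and 83.6% and 80.2% in trained NIPP1*. The Mir135a-2 product was the larger one in every library, and the lowest share was that of the third trained control library. Its counting interval (58.3 to 81.0%) did not overlap that of non-trained control (82.8 to 96.4%). How the main product divides between the 2 hairpins cannot be read from these shares.

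Ratios within a library do not depend on how libraries are scaled. The ratio of miR-135a to miR-135b was 11.6 in non-trained control and 11.5 in non-trained NIPP1*. It was 11.1, 13.3 and 9.31 in trained control, and 9.49 and 9.89 in trained NIPP1*. The non-trained libraries had nearly the same ratio, and both lay within the range of trained control. This restates that both miRNAs differed 1.82-fold between these libraries, and it uses the non-trained control library, known at their choice. In trained NIPP1* the mean log2 ratio was 0.198 below that of trained control (3.276 against 3.474), with p = 0.5 by an exact two-sided permutation test over the 5 libraries, whose 10 assignments allow no p under 0.1. Without the second trained control library the difference was -0.0675, and without the third -0.3255.

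The ratio of miR-135a reads to the summed 3p reads of its 2 hairpins was 538 (exact 95% interval 432 to 678) in non-trained control and 398 (305 to 530) in non-trained NIPP1*. It was 353, 219 and 296 in trained control, and 202 and 247 in trained NIPP1*. The ratio was highest in non-trained control, where the summed 3p level of 8.998 RPM was within the 6.689 to 10.02 RPM of the other libraries, and the intervals of the non-trained libraries overlap. Between the trained groups, the mean log2 ratio was 7.804 in trained NIPP1* and 8.148 in trained control, a difference of -0.344 (exact permutation test, two-sided p = 0.3, smallest possible 0.1). It was -0.1865 without the first trained control library, -0.532 without the second and -0.202 without the first trained NIPP1* library. The 2 ratios were the only ones compared between the groups, and their values after Benjamini-Hochberg adjustment were 0.5 for both.

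**Figure D5:**
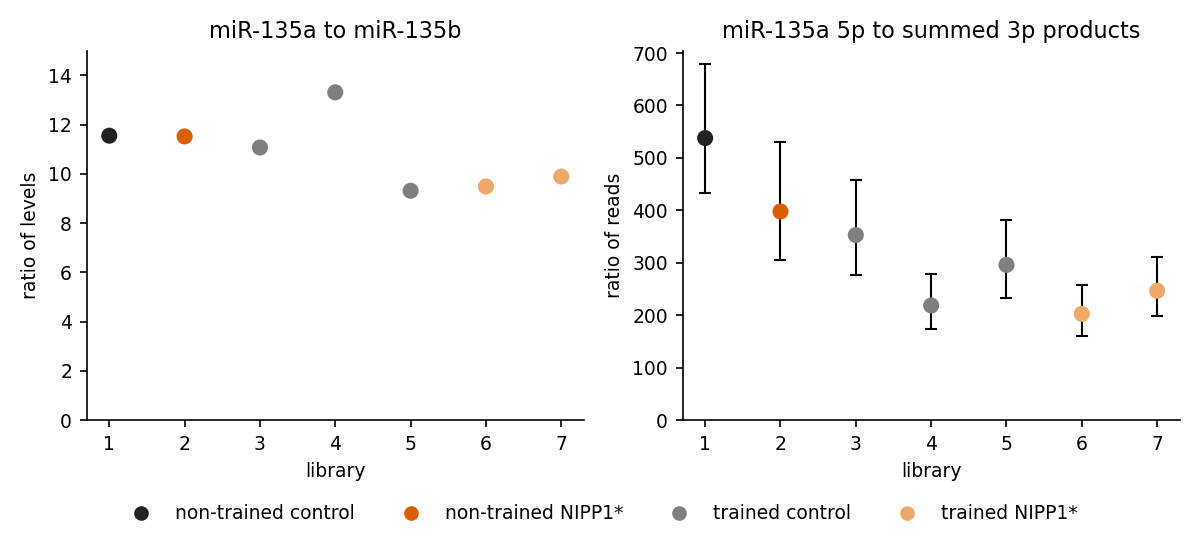
Ratio of the level of miR-135a to that of miR-135b (left) and of miR-135a reads to the summed reads of miR-135a-1* and miR-135a-2* (right, with exact 95% counting intervals) in each library, on axes from 0. The left ratio lies between 9.31 and 13.3, and the right one is highest in library 1 (538) and lowest in library 6 (202).

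Among the 318 other miRNAs that averaged 100 reads or more, miR-135b had the highest Pearson r with miR-135a over the 7 libraries on the log2 scale (0.92), and miR-21 had the highest Spearman rho (0.964, against 0.893 for miR-135b). By Pearson r, next came miR-21 (0.917), known from responses to growth and injury, miR-26b (0.888), miR-31 (0.835) and miR-210 (0.829), which is induced by low oxygen. The lowest were miR-365 (-0.907), miR-139-5p (-0.885), miR-23a (-0.867), miR-145 of smooth muscle (-0.863) and miR-191 (-0.855), and the median was 0.0928. For miR-135b, the highest were miR-135a, miR-21 (0.867) and miR-26b (0.826). The points share the non-trained control library, whose high values of both main products were known at their choice, so their r follows in part from it. Without this library the r between miR-135a and miR-135b was 0.792, at rank 7 for miR-135a, while miR-21 stayed at rank 2 with 0.935. Of the 10 miRNAs most like miR-135a, 3 were among the 10 without this library. There, r with miR-135a was 0.857 for miR-210, 0.738 for miR-26b and 0.426 for miR-31. For the 5 lowest miRNAs named above it lay between -0.827 (miR-139-5p) and -0.386 (miR-191). These correlations describe 7 libraries and are not tests.

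Of the 4 neighbours of the hairpins on the chromosome, let-7g and miR-1251 were highest in non-trained control, beside 20.0% of the 476 tested miRNAs. Their gaps to the next library were small, with log2 differences of 0.06 and 0.17, the latter from 39 against 30 reads. let-7g, of the let-7 family, lies 24633 bp from Mir135a-1 on the same strand and stood at 10480 RPM in non-trained control, 8298 RPM in non-trained NIPP1*, 8723, 8561 and 8884 RPM in trained control, and 10020 and 9554 RPM in trained NIPP1*. A trained NIPP1* library came close to its value in non-trained control. let-7g* ranged from 15.56 to 20.49 RPM, with non-trained control at 16.98 RPM. miR-1251 lies 65005 bp from Mir135a-2 on the same strand and stood at 4.39 RPM (39 reads) in non-trained control against 1.4 to 3.84 RPM in the others. Its log2 ratio of non-trained NIPP1* to control was -0.564, with a counting interval of -1.36 to 0.209, and its log2 difference of trained from non-trained control was -0.623. miR-1251* had at most 3 reads in a library.

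Of 14 miRNA names known from brain, 12 were matched as written. Their summed level was 258200 RPM in non-trained control against 225200 to 255800 RPM in the other libraries. The names miR-212 and miR-129-3p found no match, since the data hold these products under names of single arms or hairpins, which were not added. In trained against non-trained control, their log2 differences were 0.478 (miR-212-3p), 0.273 (miR-212-5p), 0.426 (miR-129-1-3p) and 0.663 (miR-129-2-3p). For none of them was the non-trained control library the highest. The median log2 difference of the 12 was -0.071 between the non-trained libraries and -0.23 between trained and non-trained control, beside 0.018 and -0.09 over all 476 miRNAs, and 0 of 12 passed 1 in either direction in trained against non-trained control, beside 7 of the 476. Between the non-trained libraries 1 of 12 did, miR-34a with a log2 ratio of -1.03, also beside 7 of the 476. The non-trained control library was the highest for 5 of the 12, beside the 20.0% of all miRNAs tested, and of these 5 miR-34a stood at 682.5 RPM against 333.1 to 512.4 RPM in the others. miR-124, the most specific of neurons, stood at 4085 RPM against 3637 to 5135 RPM, and miR-132, induced by neuronal activity, at 256.9 RPM against 281.1 to 366.7 RPM. In the 2 tested comparisons, limma called 0 of the 12.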

How the data were processed

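Small RNA libraries of 7 pooled hippocampal samples were prepared by the authors with a TruSeq kit, inserts of 19 to 26 nt were kept and mapped to mm9 in the ncPRO-seq pipeline. The submitters' processing notes name CASAVA 1.7.0, Bowtie and bedtools. The deposited value is the percent of the miRNA reads of a library at each mature locus. The deposited comparison tables give a signal, reads divided by size factors and averaged over a group by the authors. They also give fold changes, p-values and residual variances of the authors' comparisons, which were not used, and 2 further columns of library values were left out too.

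Percentages were written as RPM and copies of a mature sequence, each carrying all its reads, were averaged. Loci at 756 sequences were joined to table names by hairpin and reads (668) or reads alone (17), and the other 71 reached at most 1.12 RPM. Whole reads were recovered from the smallest steps, and 99.1 to 99.7% of low percentages (100% of the single-library signals) came out whole within 0.1 read. Amplified reads are not independent molecules.

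The model was limma on log2(RPM + 0.5) with a trend over all 7 libraries, for miRNAs that averaged 10 reads or more and an adjusted p under 0.05. Fold changes on this scale understate changes of low miRNAs. The study's methods name a Wilcoxon test, which cannot reach 0.05 with 2 against 3 libraries. The steps were tested on simulated data. Alternatives were TMM, DESeq2 size factors, edgeR and DESeq2 tests on recovered reads, pseudocounts of 0.1 and 1, means of at least 1 or 100 reads, models of only the groups compared, leaving out each trained library in turn, and the grouping of the authors' tables. Other scalings of the gap to the next library were added after seeing the data.

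The products and the lists were chosen with earlier results of these data known. The text names every product of the 3 hairpins, the 5 miRNAs most and least like miR-135a, the 3 most like miR-135b, their neighbours by rank and on the chromosome, and examples of a list of brain miRNAs. miR-503, miR-467e and miR-34a, named for their gaps, were chosen after their values were seen. Genes near the hairpins come from the GENCODE annotation of mm9. The software was Python 3.11.15 (pandas 2.3.3, scipy 1.17.1, numpy 2.4.6) and R 4.3.3 with DESeq2 1.42.0, edgeR 4.0.16 and limma 3.58.1.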

Additional observations from a re-analysis of the deposited data

Results flagged for a closer look

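The values of miR-135a-2* in trained against non-trained libraries had opposite signs in the 2 genotypes as labelled. The difference in NIPP1* did not pass the test (limma adjusted p = 0.973), and the one in control was not tested. Both trained NIPP1* libraries (8.37 and 6.49 RPM) were above the non-trained NIPP1* library (5.95 RPM), a log2 difference of 0.288 (0.116 without the first of these libraries and 0.4596 without the second), and the 3 trained control libraries (6.71, 7.66 and 6.14 RPM) were below the non-trained control library (8.21 RPM), a difference of -0.253. The difference between the genotypes was not tested, since it rests on the non-trained control library. The libraries held 48 to 73 reads of this product, and the counting intervals of all 7 overlap.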

How the results depend on the processing

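With the grouping of the authors' tables, every difference between the trained genotypes changed its sign by construction. The log2 differences became 0.2591 for miR-135a and 0.06085 for miR-135b, -0.1072 for miR-135a-2* and -0.03354 for miR-135a-1*, that of the ratio of miR-135a to miR-135b 0.198, and that of the ratio of miR-135a to its 3p products 0.344. In the same comparison, miR-135a-1* was at -0.02412 with TMM, -0.008357 with DESeq2 size factors, -0.1024 with edgeR and -0.0929 with the DESeq2 Wald test, and the cause was not tested. Leaving out 1 library gave -0.4158 to -0.1508 for miR-135a and -0.3471 to 0.1146 for miR-135b, -0.1106 to 0.3134 for miR-135a-1* and -0.06462 to 0.279 for miR-135a-2*, and -0.3255 to -0.0675 and -0.532 to -0.1865 for the 2 ratios. The DESeq2 Wald test called 1 miRNA in trained NIPP1* against trained control and 2 in trained against non-trained NIPP1*, and the other alternatives called 0 in both. The 7 miRNAs past a log2 ratio of 1 in either direction between the non-trained libraries became 3 with a minimum of 100 reads, since fewer miRNAs were compared. The 7 in trained against non-trained control became 3 with that minimum, and 1 to 20 when a trained control library was left out (20 without the first, 1 without the second). miR-135a ranged from -0.869 to -0.8609 over the alternatives between the non-trained libraries, and miR-135b from -0.865 to -0.8569. No paired analysis was possible because the labels give no replicate numbers, and those used here only name the libraries. Depth limits the 3p products, which had at most 73 reads a library, and the single non-trained libraries allow no spread.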

Other observations

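All 5 products of the 3 hairpins together made up 5269 RPM in non-trained control and 2899 RPM in non-trained NIPP1*. They made up 3058, 2091 and 2860 RPM in trained control and 2253 and 2204 RPM in trained NIPP1*. Of the reads of the 2 main products, miR-135a held 92.0% in both non-trained libraries and between 90.3% and 93.0% in the trained ones.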
